A study of Mus musculus with 17 samples.

Results

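The 10 genes described here encode enzymes that make, recycle or use glutathione: Gclc, Gclm, Gss, Gsr, Gsta1, Gsta4, Gstm1, Gstm3, Gstp1 and Gpx1. They were taken from the table of FPKM values (fragments scaled to transcript length and library size) by matching its Ensembl gene IDs to these symbols. All 10 were found among 46073 listed genes, and all 10 were among the 11101 genes tested, those whose mean reached 1 FPKM. RNA came from 17 liver samples of male C57BL/6 mice, 24 h after acetaminophen (APAP, a painkiller that injures the liver at high dose) or saline. The labels give 3 genotypes at Nampt, the gene of an NAD-producing enzyme: Nampt +/+ (WT), Nampt +/- (Het) and Nampt OE (OE, an abbreviation left unexplained in the labels).

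The saline groups hold 3 WT, 2 Het and 2 OE livers, and the groups given 200 mg/kg of APAP hold 3 WT, 3 Het and 2 OE livers. Alone in their groups were 1 WT mouse given saline labelled IG and 1 OE mouse given APAP at 300 mg/kg. The mice were 11 weeks old, except that WT saline 1 and 2, the 300 mg/kg mouse and OE APAP 2 were 12. Livers had been perfused in WT saline 1 and 2, both Het saline, OE saline 1, Het APAP 1 and OE APAP 2, and in no other library. Perfusion followed the sequencing lane (L007 and L008 perfused, L004 to L006 not), so these cannot be told apart, and WT saline shared a lane only with the IG library. The WT response therefore cannot be told apart from lane, nor can the averaged response that includes it. The same holds for the saline differences of Het or OE from WT. It holds too for differences of the Het or OE response from the WT response. Replicate numbers are names only. No source states that replicates are separate animals, so a liver or mouse counted here means 1 library. P-values then measure only the spread of these libraries, part of which may be technical.

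The depth behind the values is unknown, since FPKM carry no counts. Summed FPKM ran from 466883 to 916006 per library. Nampt itself did not follow 1 label: it stood at 15.3 to 18.0 FPKM in WT saline, 23.4 in the WT IG library, and 23.0 and 26.0 in the libraries labelled Het saline, so Het below always means libraries labelled Het. In OE saline Nampt was 22.4 and 27.2 FPKM. After APAP it was 36.0 and 18.5 FPKM in OE, 10.9 to 16.7 in WT and 11.3 to 15.4 in Het. By limma, Nampt after APAP was higher in OE than in Het by a log2 difference of 0.89 ± 0.24 (adjusted p = 0.0322). The OE difference from WT was 1.05 ± 0.26 (adjusted p = 0.122), and the Het response was -0.93 ± 0.27 (adjusted p = 0.0268). Of the hepatocyte markers, Alb was at 0 throughout the table, and the list summed to 22354 to 28215 FPKM under saline and 12022 to 23484 after APAP. Pericentral hepatocyte markers passed as lower after APAP for 8 of 9 tested, and they summed to 1505 to 5228 FPKM under saline and 238 to 1535 after APAP. Monocyte and macrophage markers passed as higher for 6 of 8, with sums of 51.7 to 131 and 65.3 to 472 FPKM. Of all genes tested, 9.79% passed as higher and 13.3% as lower in the response averaged over the 3 genotype labels. In bulk liver, fewer cells of a type and less RNA per cell cannot be told apart.

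Glutathione is a tripeptide of glutamate, cysteine and glycine. Hepatocytes make it in 2 steps, by glutamate-cysteine ligase (catalytic subunit Gclc, modifier subunit Gclm) and then glutathione synthetase (Gss), and glutathione reductase (Gsr) returns the oxidised form to use with NADPH. Glutathione transferases (Gst) join it to reactive compounds, and the reactive product that cytochrome P450s make from APAP is cleared in this way until glutathione runs short. Glutathione peroxidase 1 (Gpx1), a selenoenzyme, spends glutathione to reduce hydrogen peroxide.

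After APAP, 1 of the 10 genes rose and 1 fell in the response averaged over the 3 genotype labels. Gsta1, an alpha-class transferase, rose 11.7-fold, and Gpx1 fell with a fold of 0.586, both as fitted values. Neither the ligase subunits, the synthetase, the reductase nor the other 4 transferases passed the test. Of all 11101 genes, 23.1% passed in this comparison (9.79% higher and 13.3% lower), so 2 of 10 is near the background share. The median log2 difference of the 10 genes was -0.08, against -0.02 over all genes. A share of all genes without overlap was counted only for 8 APAP libraries below 7 saline libraries. Other statements below that groups or libraries lay apart have no background and are not results about these genes. All tests are limma on log2(FPKM + 1) with a perfusion term and Benjamini-Hochberg adjustment over all genes tested. Fold changes are on that scale and adjusted for perfusion, so they can differ from plain ratios of levels. Errors of log2 differences are standard errors.

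**Figure D1:**
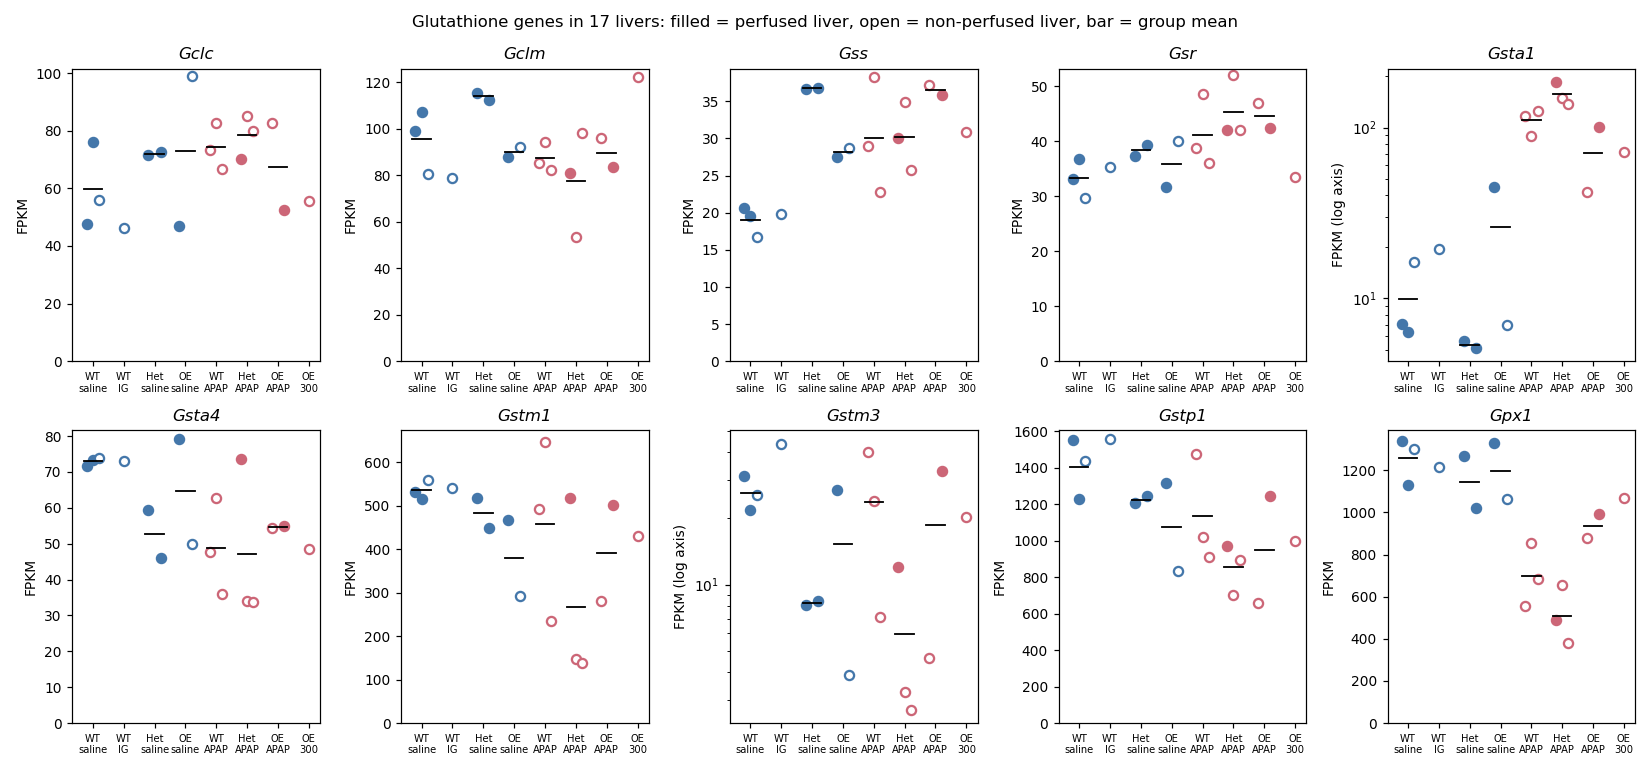
FPKM of each of the 10 genes (vertical axis, logarithmic for Gsta1 and Gstm3) in the 8 label groups (horizontal axis; IG and 300 mark the single libraries). Points are libraries, filled where the liver was perfused, and bars are group means. Gsta1 is low in saline apart from OE saline 1 (45.1) and Gpx1 lies below every saline library in all 8 APAP libraries.

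By level, the genes spanned a wide range on the length-scaled FPKM measure. Gstp1 was the most abundant, with a mean of 1132 FPKM over the 17 libraries, ahead of Gpx1 at 955 FPKM. The ranges of Gstp1 (656 to 1559) and Gpx1 (382 to 1341) overlapped. Gstm1 followed at 427 FPKM. Then came Gclm at 92.3, Gclc at 68.5, Gsta1 at 66.5, Gsta4 at 57.2, Gsr at 39.2, Gss at 28.9 and Gstm3 at 18.6 FPKM, and each of these neighbours overlapped the next across libraries. The genes differed more in how far they varied: the highest library held 36.3 times the lowest for Gsta1, 16.2 times for Gstm3, 4.72 times for Gstm1 and 3.51 times for Gpx1. For the other 6 genes this ratio lay between 1.75 (Gsr) and 2.38 (Gstp1).

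The synthesis genes showed no call. Gclc, the catalytic subunit of the rate-limiting ligase (ENSMUSG00000032350, chr9:77754535-77794485 on the plus strand of GRCm38), stood at 47.7, 76.1 and 56.0 FPKM in WT saline, 71.4 and 72.6 in Het saline and 47.0 and 98.9 in OE saline. The APAP libraries read 73.5, 82.8 and 66.7 FPKM in WT, 70.0, 85.0 and 80.0 in Het and 82.7 and 52.4 in OE. The APAP range lay inside the saline range, which OE saline 1 and OE saline 2 alone set at both ends. Its averaged log2 difference was -0.05 ± 0.17 (95% interval -0.41 to 0.31, adjusted p = 0.863).

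Gclm, the modifier subunit that raises the activity of Gclc (ENSMUSG00000028124, chr3:122245557-122270732, plus strand), stood at 98.8, 107 and 80.6 FPKM in WT saline, 115 and 112 in Het saline and 87.7 and 91.9 in OE saline. With APAP the values were 85.3, 94.2 and 82.3 FPKM in WT, 81.0, 53.6 and 98.3 in Het and 95.8 and 83.5 in OE. Het APAP 2 was the 1 library below every saline library. On average the log2 difference was -0.20 ± 0.15 (95% interval -0.52 to 0.12, adjusted p = 0.366). The highest Gclm value of all 17 libraries, 122 FPKM, was in the single 300 mg/kg library.

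Gss, which adds glycine (ENSMUSG00000027610, chr2:155563181-155592810, minus strand), was lowest in WT saline, at 20.6, 19.5 and 16.8 FPKM, and the IG library lay among them at 19.8. It was at 36.7 and 36.8 FPKM in Het saline and at 27.6 and 28.7 in OE saline. In APAP livers it stood at 29.0, 38.3 and 22.8 FPKM in WT, 30.1, 35.0 and 25.7 in Het and 37.3 and 35.8 in OE. WT saline overlapped no group but the IG library, and the livers of all other groups lay between 22.8 and 38.3 FPKM. This separation has no background share. Averaged over the labels, the log2 difference was 0.25 ± 0.13 (adjusted p = 0.189), and the WT difference alone was 0.64 ± 0.20 (adjusted p = 0.0786). The saline difference of Het from WT, singled out after its values were seen, was 0.91 ± 0.20 with an unadjusted p of 7.47e-04 and an adjusted p of 0.195. Within perfused livers this difference was 0.84, between lane L008 and lane L007. Gss overlaps Acss2, Gssos1 and Gssos2 on the other strand, and whether the counting used strand is not given in the sources used here.

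Gsr, the reductase that recycles oxidised glutathione (ENSMUSG00000031584, chr8:33652523-33698163, plus strand), was the steadiest of the 10. It stood at 33.2, 36.8 and 29.8 FPKM in WT saline, 37.4 and 39.3 in Het saline and 31.7 and 40.0 in OE saline. Livers given APAP held 38.8, 48.5 and 36.0 FPKM in WT, 42.0, 52.1 and 42.0 in Het and 47.0 and 42.4 in OE. In 6 of 8 APAP libraries Gsr lay above all 7 saline libraries, WT APAP 1 and 3 being the exceptions. Its averaged log2 difference was 0.24 ± 0.11 with an adjusted p of 0.151. After quantile normalisation Gsr and Gss passed as higher, and that fit alone of 25 called either.

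Gsta1 gave the largest response (ENSMUSG00000074183, chr9:78230656-78242684, plus strand). Alpha-class transferases conjugate glutathione and also reduce lipid hydroperoxides. Under saline Gsta1 stood at 7.09, 6.31 and 16.4 FPKM in WT, 5.58 and 5.11 in Het and 45.1 and 6.97 in OE. The APAP libraries read 116, 89.5 and 126 FPKM in WT, 185, 149 and 138 in Het and 41.8 and 101 in OE. WT and Het livers did not overlap between saline and APAP, whereas OE saline 1 exceeded OE APAP 1. How many of all genes separate groups this small is not given. Leaving those 2 aside, the highest saline value was the 19.4 FPKM of the IG library and the lowest APAP value the 71.9 FPKM of the 300 mg/kg library.

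The averaged log2 difference of Gsta1 was 3.55 ± 0.40 (95% interval 2.67 to 4.43, adjusted p = 5.14e-04). It passed in all 25 other fits tried, with values of 2.90 to 4.13. In WT the response was 3.84 ± 0.61 (adjusted p = 0.0102) and in Het 5.02 ± 0.67 (adjusted p = 0.00152). In OE it was 1.78 ± 0.66, with an unadjusted p of 0.0215 and an adjusted p of 0.932, in a comparison where none of the 11101 genes passed. Within lanes or perfusion states the differences were 2.67 in non-perfused WT livers, 4.88 in Het livers of lane L008, and 2.43 and 1.14 in OE livers of lanes L004 and L008. In WT that is 3 APAP livers of lane L005 against 1 saline liver of lane L006. In Het it is 1 APAP against 2 saline livers, and in each OE lane 1 against 1.

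The OE libraries spread widely under both treatments. Besides its Gsta1 level of 45.1 FPKM, OE saline 1 had Glul, the glutamine synthetase that marks pericentral hepatocytes, at 101.5 FPKM, while the 7 other saline libraries, IG included, had 313 to 466. Its Cyp2e1, the main enzyme that activates APAP, was at 734 FPKM against 1662 to 3831 in those 7. Its monocyte and macrophage marker sum was 129 FPKM, near the top of the saline range. Without OE saline 1 the OE response of Gsta1 was 3.03 (adjusted p = 0.243), and without OE saline 2 it was 0.54 (adjusted p = 0.894). OE APAP 1, with the lowest APAP value of Gsta1, had the highest Cyp2e1 of the 8 APAP libraries, 1016 FPKM, and the lowest monocyte sum, 65.3 FPKM. The part of these differences in the Gsta1 values was not tested.

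Gsta1 has near-identical neighbours, so the value listed for it is uncertain. Of the 775 windows of 101 bases (1 read length) in its GENCODE vM21 transcripts, 81.7% occur unchanged in another gene, and 71.1% occur in Gm3776, which was not analysed here. Gm10639 shares 33.7% and Gsta2 24.7% of their own windows with other genes. The resemblance extends upstream. The 80 bases of the Gsta1 promoter that are most alike in its 3 relatives are shown from RefSeq on GRCm38.p6, 5′ to 3′ along each gene, with capitals where a base differs from Gsta1. They lie at chr9:78230534-78230613 (plus strand) for Gsta1, chr9:78257007-78257086 (plus) for Gm3776, chr9:78289808-78289887 (plus) for Gm10639 and chr9:78347204-78347283 (minus) for Gsta2.
Gsta1: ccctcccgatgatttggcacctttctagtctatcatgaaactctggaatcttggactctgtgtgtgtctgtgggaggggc
Gm3776: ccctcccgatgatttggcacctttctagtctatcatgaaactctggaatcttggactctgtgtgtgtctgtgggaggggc
Gm10639: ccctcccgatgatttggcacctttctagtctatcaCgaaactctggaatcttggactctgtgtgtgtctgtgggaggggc
Gsta2: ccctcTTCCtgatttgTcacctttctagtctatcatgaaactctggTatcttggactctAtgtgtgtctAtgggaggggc

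Gm3776 has 0 differences from Gsta1 in this stretch, Gm10639 has 1 and Gsta2 has 8. Over the whole 250 bases before the start, Gsta1 and Gsta2 are identical at 187 of 252 aligned columns (74.2%). In expression, the values listed for Gm10639 moved with those of Gsta1, and those of Gsta2 did not. How far reads from shared sequence tie these values together was not tested. Gm10639 stood at 0.394 to 1.94 FPKM in WT and Het saline, at 6.36 in OE saline 1 and at 0.434 in OE saline 2. With APAP the values were 10.4 to 11.2 FPKM in WT, 17.6 to 25.7 in Het and 6.02 and 13.2 in OE. It rose with an averaged log2 difference of 2.88 ± 0.36 (adjusted p = 7.04e-04).

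Gsta2 stood at 11.3 to 26.1 FPKM under saline and at 5.95 to 37.2 after APAP, with a log2 difference of -0.28 ± 0.31 (adjusted p = 0.561). Its lowest values were those of Het APAP 2 and 3 and its highest that of OE APAP 1, the APAP library with the least Gsta1. Among the 6518 genes whose mean reached 5 FPKM, Gm10639 was the nearest to Gsta1 over the 17 libraries, with a mean absolute difference of 0.33 between centred log2 values. Next were Apcs, a serum amyloid P gene of the acute phase, at 0.65, and Socs3, an inhibitor of cytokine signalling, at 0.74. No other of the 10 glutathione genes was near it, Gss being the closest at rank 741.

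**Figure D2:**
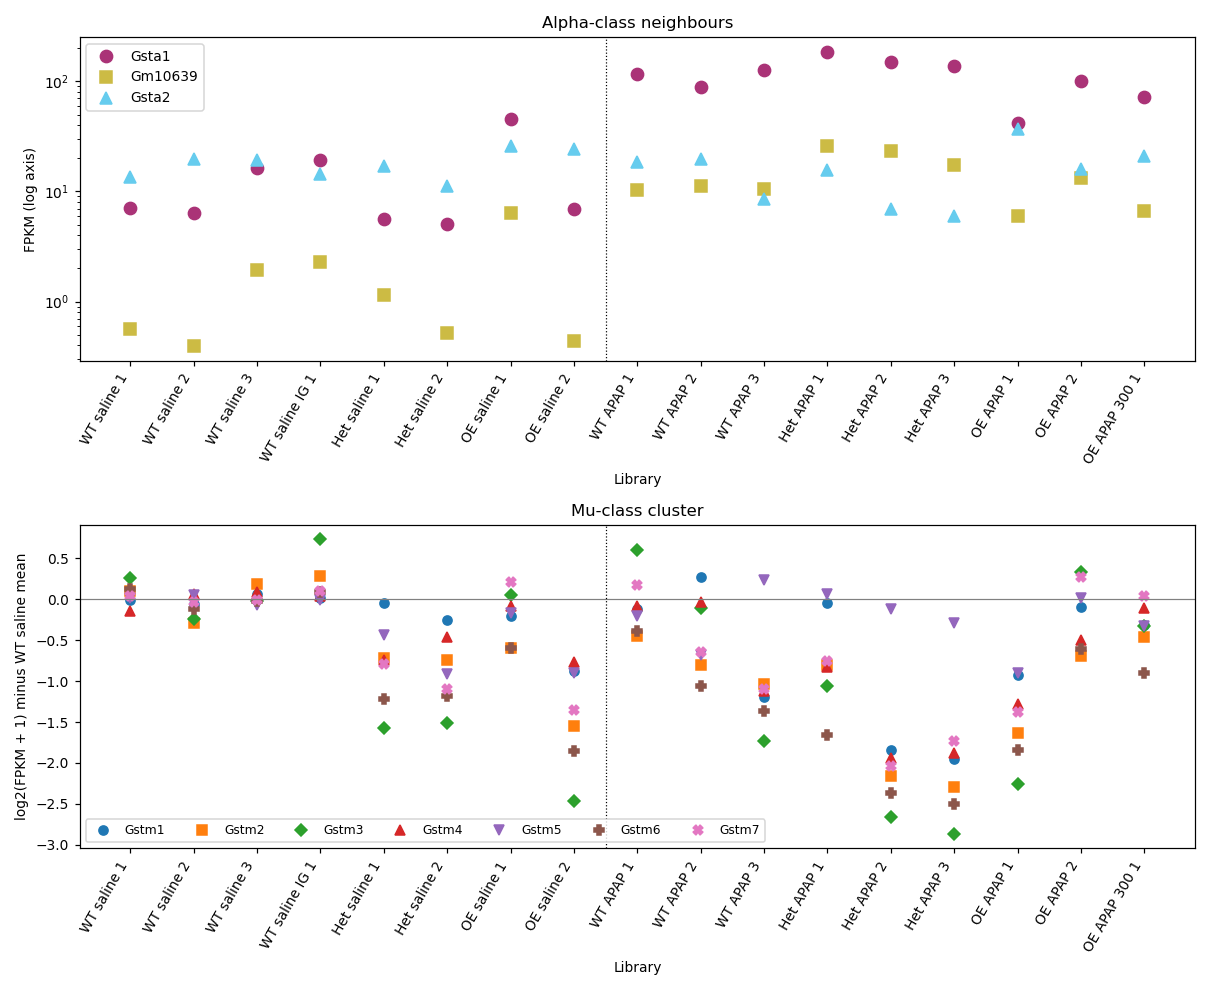
Upper plot: FPKM (log axis) of Gsta1, Gm10639 and Gsta2 in each of the 17 libraries, with a dotted line between saline and APAP; Gsta1 and Gm10639 move together, up to 185 and 25.7 FPKM in Het APAP 1, and Gsta2 does not. Lower plot: log2(FPKM + 1) of the 7 mu-class genes minus their WT saline mean; Het APAP 2 and 3, OE APAP 1 and OE saline 2 are the lowest for most of them.

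Gsta4, the alpha-class enzyme specialised for the lipid aldehyde 4-hydroxynonenal, lies beside Gsta1 (ENSMUSG00000032348, chr9:78182774-78209349, plus strand) and shares no 101-base window with it. It stood at 71.8, 73.4 and 73.8 FPKM in WT saline, 59.4 and 46.0 in Het saline and 79.3 and 49.9 in OE saline. In APAP livers it stood at 47.6, 62.7 and 35.9 FPKM in WT, 73.7, 34.1 and 33.7 in Het and 54.5 and 54.9 in OE. In WT all APAP values lay below all saline values, a separation without a background share, but Het APAP 1 exceeded both Het saline livers. Averaged over the labels, the log2 difference was -0.15 ± 0.18 (adjusted p = 0.597).

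The mu-class genes lie together on chromosome 3. Gstm1, the abundant mu enzyme of liver (ENSMUSG00000058135, chr3:108012255-108017973, minus strand), stood at 532, 515 and 559 FPKM in WT saline, 518 and 448 in Het saline and 466 and 292 in OE saline. Livers given APAP held 493, 648 and 234 FPKM in WT, 518, 148 and 137 in Het and 281 and 501 in OE. Livers of 1 group differed more than the groups did, by up to 3.77-fold in Het APAP. Its averaged log2 difference was -0.12 ± 0.29 (adjusted p = 0.810).

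Gstm3 (ENSMUSG00000004038, chr3:107963696-107969283, minus strand) stood at 31.1, 21.8 and 25.6 FPKM in WT saline, 8.04 and 8.43 in Het saline and 26.8 and 3.87 in OE saline. The APAP libraries read 39.9, 24.1 and 7.12 FPKM in WT, 12.0, 3.24 and 2.70 in Het and 4.62 and 32.9 in OE. Both Het groups lay below WT saline, while WT APAP and both OE groups spread over high and low values. On average the log2 difference was 0.44 ± 0.46 (adjusted p = 0.538), and it was -0.27 without the perfusion term. Of its 101-base windows 13.5% occur in other genes.

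Across libraries most mu genes were high or low together. The median log2 difference of Gstm1 to Gstm7 from their WT saline means was -2.04 in Het APAP 2, -1.95 in Het APAP 3, -1.38 in OE APAP 1, -1.35 in OE saline 2 and -1.13 in WT APAP 3. It was -0.10 in OE APAP 2, -0.12 in WT APAP 1 and -0.17 in OE saline 1, and -0.74 and -0.92 in the Het saline livers. OE saline 2 and OE APAP 1 were run together in lane L004, and the remaining library of that lane, the 300 mg/kg liver, was at -0.32. Gstm5 stood apart, at -0.11 and -0.29 in Het APAP 2 and 3. The genes nearest to Gstm3 over the 17 libraries were 1810008I18Rik, at a mean absolute difference of 0.37, and at 0.38 each Acacb, an acetyl-CoA carboxylase, and Sc5d, an enzyme of cholesterol synthesis.

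Gstp1 is the pi-class transferase, the chief one of male mouse liver, and mice lacking the pi genes have been reported to be less sensitive to APAP. Gstp1 (ENSMUSG00000060803, chr19:4035407-4037985, minus strand) stood at 1553, 1229 and 1436 FPKM in WT saline, 1204 and 1242 in Het saline and 1314 and 832 in OE saline. With APAP the values were 1476, 1017 and 910 FPKM in WT, 969, 703 and 896 in Het and 656 and 1244 in OE. All 3 Het APAP livers lay below both Het saline livers, again without a background share, and the other genotypes overlapped. Averaged over the labels, the log2 difference was -0.18 ± 0.19 (adjusted p = 0.537). Its copy Gstp2, with which it shares 38.2% of its windows, stood at 0.742 to 4.28 FPKM.

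Gpx1 was the gene that fell (ENSMUSG00000063856, chr9:108338903-108340343, plus strand). It stood at 1341, 1131 and 1299 FPKM in WT saline, 1270 and 1020 in Het saline and 1329 and 1066 in OE saline. In APAP livers it stood at 557, 857 and 682 FPKM in WT, 489, 656 and 382 in Het and 880 and 991 in OE. All 8 APAP libraries lay below all 7 saline libraries, as they did for 2.41% of the genes tested. The 300 mg/kg library, at 1067 FPKM, lay within the saline range.

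The averaged log2 difference of Gpx1 was -0.77 ± 0.18 (95% interval -1.16 to -0.38, adjusted p = 0.00985). It passed in 24 of 25 other fits, the exception being the fit without OE APAP 2 (-0.80, adjusted p = 0.0530). By label the difference was -0.82 ± 0.28 in WT (adjusted p = 0.0998), -1.15 ± 0.30 in Het (adjusted p = 0.0189) and -0.35 ± 0.30 in OE (adjusted p = 1). The Het call was lost without Het saline 1 (adjusted p = 0.133), Het saline 2 (0.0609) or Het APAP 1 (0.0655), and with lane in place of perfusion (0.0704). Within lanes or perfusion states the differences were -0.92 in non-perfused WT livers, -1.22 in Het livers of lane L008 and -0.28 and -0.42 in OE livers of lanes L004 and L008. These compare 3 APAP with 1 saline liver in WT (lanes L005 and L006), 1 with 2 in Het and 1 with 1 in each OE lane. Red cells carry this enzyme as well, and the summed red-cell markers ran from 42.0 to 254 FPKM under saline and from 54.4 to 1203 after APAP, the highest sum being in Het APAP 2. Their part in the Gpx1 values was not tested.

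**Figure D3:**
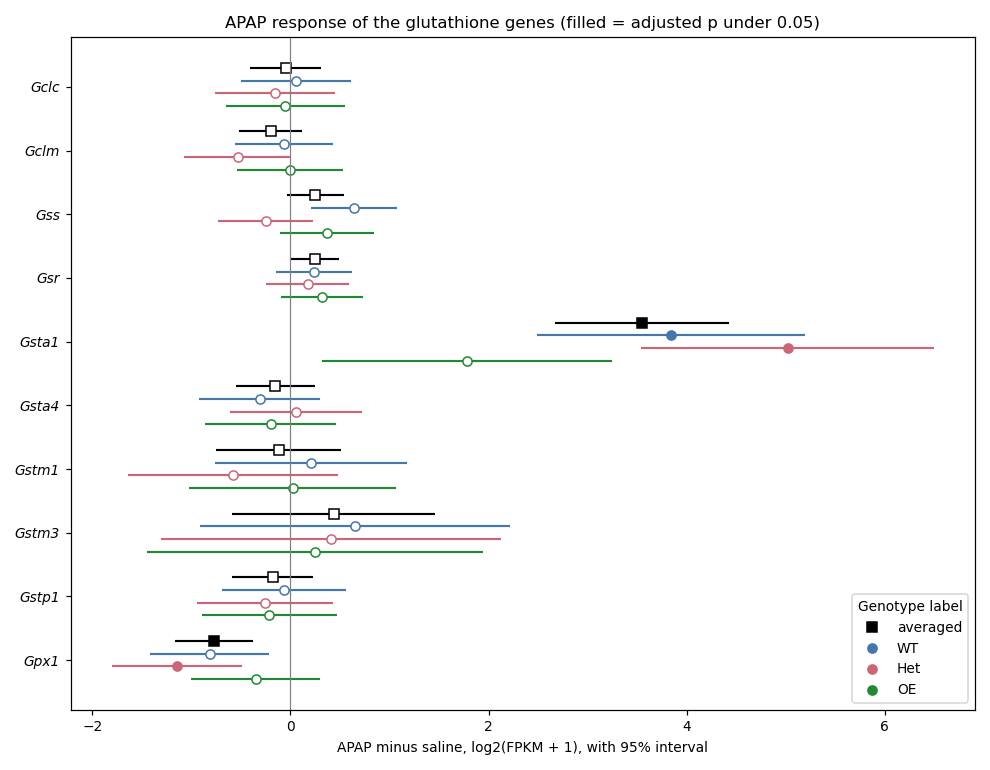
APAP minus saline difference of each of the 10 genes on the log2(FPKM + 1) scale (horizontal axis), averaged (black squares) and for the labels WT, Het and OE (circles), with 95% intervals; filled symbols passed at an adjusted p under 0.05. Gsta1 stands at 3.55 averaged and Gpx1 at -0.77, and no other averaged difference passed.

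By genotype label, 1 of the 10 genes passed in WT, Gsta1, where 5.5% of all genes passed (1.95% higher and 3.55% lower). In Het 2 passed, Gsta1 and Gpx1, where 22.1% of all genes passed (9.04% higher and 13.1% lower). In OE 0 passed of the 10 and of all genes, and 1 of the 10 had an unadjusted p under 0.05. The share of all genes at an unadjusted p under 0.05 is not given, so such counts, here and below, have no background. Whether the responses themselves differed was tested as differences of response, and 0 of the 10 passed in any of the 3, with 1 of the 10 at an unadjusted p under 0.05 in each. For Gsta1 the Het response exceeded the WT response by 1.18 ± 0.81 (adjusted p = 0.694). The OE response was lower than the WT response by a log2 difference of -2.05 ± 0.90 (adjusted p = 0.817) and lower than the Het response by -3.23 ± 0.94 (adjusted p = 0.129). That last difference was -3.09 with lane in place of perfusion (adjusted p = 0.0231), and -1.64 without OE saline 1 (adjusted p = 0.511). Over all genes 0%, 0% and 0.018% passed in these 3 tests.

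After APAP, Gpx1 was higher in OE than in Het by a log2 difference of 0.90 ± 0.27 (95% interval 0.30 to 1.49, adjusted p = 0.0488), 1 of the 10 genes where 13.6% of all genes passed (8.72% higher and 4.9% lower). Both OE livers, at 880 and 991 FPKM, lay above all 3 Het livers, and no share of all genes is given for such a separation. Within lane L008 the difference was 1.02 between 1 liver of each. The call lay near the threshold and was lost in 17 of 26 other fits, among them 13 of the 15 that left out 1 library, with adjusted p up to 0.344 and values of 0.72 to 1.11. It held only without WT APAP 1 or Het APAP 2 among those 15. Gsta1 was lower in OE than in Het by -1.35 ± 0.61 (adjusted p = 0.166), and passed without WT saline 3 (adjusted p = 0.0273).

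Between Het and WT livers given APAP 0 of the 10 genes passed, where 0.054% of all genes passed, and 2 of the 10 had an unadjusted p under 0.05. With lane in place of perfusion 2 of the 10 passed and with array weights 3. The 0.054% belongs to the main fit. The shares of all genes in these other fits are not given here, so their counts have no background beside them. The count was 2 with WT APAP 3 left out, and 1 with WT saline 3 or Het APAP 1 left out. In the main fit the 2 with an unadjusted p under 0.05, named after their values were seen, were Gstm3 and Gstm1. Gstm3 was at -2.32 ± 0.64 (adjusted p = 0.0985) and Gstm1 at -1.21 ± 0.41 (adjusted p = 0.140). Within lane L005 the difference of Gstm3 was -2.36, from 2 Het and 3 WT livers. Gsta1 differed by 0.32 ± 0.56 (adjusted p = 0.791). Between OE and WT livers given APAP 0 of the 10 passed (0.00901% of all genes, and 0 of the 10 at an unadjusted p under 0.05), with Gsta1 at -1.03 ± 0.64 (adjusted p = 0.434).

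Under saline 0 of the 10 genes passed between Het and WT or between OE and WT, where 0.036% of all genes passed in each. At an unadjusted p under 0.05 stood 3 genes for Het and 1 for OE. The 0.036% is at the adjusted threshold and is no background for these counts. Gsta1 was at -0.86 ± 0.62 for Het (adjusted p = 0.628) and at 1.02 ± 0.61 for OE (adjusted p = 0.918), the latter turning to -0.31 without OE saline 1.

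The upstream sequences of the members were searched for 3 motifs. RefSeq promoters were at hand for 7 of the 10 genes, all but Gclc, Gsr and Gsta4, and the 250 bases before the start were searched on both strands. The core of the antioxidant response element, TGACNNNGC, to which Nrf2 binds with a small Maf protein, was found in 1 of the 7 (Gclm) and in 10.2% of 32851 promoters. The AP-1 site TGAGTCA, a Jun and Fos site whose reverse complement can open that core, was found in 1 of the 7 (Gstp1) and in 4.46% of promoters. The TATA box TATAAA, found in 12.4% of promoters, was in 1 of the 7, Gstm1, beginning 30 bases before a listed start. Another listed Gstm1 start has no match in its 250 bases. The antioxidant and AP-1 matches are shown, with the motif in capitals, at chr3:122245407-122245447 (plus strand, the match itself on the minus strand) and chr19:4037964-4038002 (minus strand, shown along the gene).
Gclm: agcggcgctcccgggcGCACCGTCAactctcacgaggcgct
Gstp1: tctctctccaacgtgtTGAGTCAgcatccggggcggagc

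The match in Gclm begins 134 bases before the start and that in Gstp1 74 bases before it. Both genes are among those that did not pass. Gsta1, with none of the 3 motifs in this window, is the gene that rose. The absence of a motif here says only that these letters are not in the 250 bases.

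Among the other glutathione transferases, 1 of 17 tested rose after APAP and 8 fell, with a median log2 difference of -0.35 against -0.02 over all genes. This and the counts below are to be read against the shares over all genes, 9.79% higher and 13.3% lower. Gstt3 fell by 1.31 ± 0.17 (adjusted p = 6.30e-04) and Gstt1 by 0.86 ± 0.15 (adjusted p = 0.00203), both theta-class enzymes. Gstz1, which also works in tyrosine breakdown, fell by 0.87 ± 0.14 (adjusted p = 0.00152), and Gstk1, a mitochondrial and peroxisomal enzyme, by 0.87 ± 0.15 (adjusted p = 0.00223). The 1 gene that rose was Gstp2, by 0.61 ± 0.18 (adjusted p = 0.0293), at the low levels given above. Gsta3, the abundant alpha enzyme of liver and named after its values were seen, fell by 1.39 ± 0.29 (adjusted p = 0.00599), while Gsta1 of the same class rose.

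The list on cysteine covers the methionine cycle, transsulfuration, amino acid carriers and 2 genes of its breakdown, Cdo1, which oxidises cysteine, and Csad, which acts on the product of that step. Of 11 tested 3 rose and 6 fell, Cdo1 among the latter, with a median of -0.96. Bhmt, which remethylates homocysteine, fell by 1.70 ± 0.22 (adjusted p = 5.52e-04), Ahcy, which forms homocysteine, by 1.30 ± 0.20 (adjusted p = 0.00108) and Cth, which releases cysteine from cystathionine, by 1.49 ± 0.24 (adjusted p = 0.00148). Slc1a4, a neutral amino acid carrier, rose by 0.70 ± 0.12 (adjusted p = 0.00175). All 3 genes that rose (Slc1a4, Slc1a5 and Slc3a2) encode amino acid transporter subunits.

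In the breakdown list 1 rose and 3 fell of 8, with a median of -0.22. Nat8, which acetylates cysteine conjugates to mercapturates, fell by 1.59 ± 0.21 (adjusted p = 7.04e-04), and Oplah, the 5-oxoprolinase, by 0.67 ± 0.13 (adjusted p = 0.00324). The 2 genes that cleave cytosolic glutathione went opposite ways, Chac1 rising by 1.06 ± 0.23 (adjusted p = 0.00774) and Chac2 falling by 0.47 ± 0.13 (adjusted p = 0.0269).

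Of 14 other peroxidases and thiol enzymes, 1 rose and 4 fell, with a median of -0.02, the same as over all genes; the count is 5 of 14, where 23.1% of all genes passed. Srxn1, the sulfiredoxin that repairs peroxiredoxins, rose by 0.98 ± 0.12 (adjusted p = 4.60e-04). Hagh, the second glyoxalase, fell by 0.92 ± 0.11 (adjusted p = 4.53e-04), the glutaredoxin Glrx by 0.89 ± 0.16 (adjusted p = 0.00296) and Glrx5, a mitochondrial glutaredoxin, by 0.56 ± 0.12 (adjusted p = 0.00724). Of 6 genes for NADPH, which Gsr needs, 2 rose and 1 fell, with a median of 0.05. G6pdx and Pgd, the oxidative steps of the pentose phosphate pathway, rose by 0.90 ± 0.17 (adjusted p = 0.00359) and 1.03 ± 0.20 (adjusted p = 0.00446), and Me1, the cytosolic malic enzyme, fell by 0.87 ± 0.16 (adjusted p = 0.00278).

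Transporters of glutathione and its conjugates included 2 that rose and 4 that fell of 8, with a median of -0.44. Abcc4 and Abcc1, exporters, rose by 1.12 ± 0.12 (adjusted p = 2.10e-04) and 0.77 ± 0.19 (adjusted p = 0.0129). The sinusoidal carrier Slco1b2 fell by 2.11 ± 0.26 (adjusted p = 5.14e-04) and Abcc3 by 0.81 ± 0.19 (adjusted p = 0.00896). Of 13 regulators 1 rose and 2 fell, with a median of -0.11, and 3 of 13 is the share that passed among all genes (23.1%). The small Maf genes Mafk and Mafg went opposite ways, by 0.63 ± 0.12 (adjusted p = 0.00423) and -0.48 ± 0.11 (adjusted p = 0.00970). Nr1i3, the nuclear receptor CAR, fell by 1.90 ± 0.40 (adjusted p = 0.00825).

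**Figure D4:**
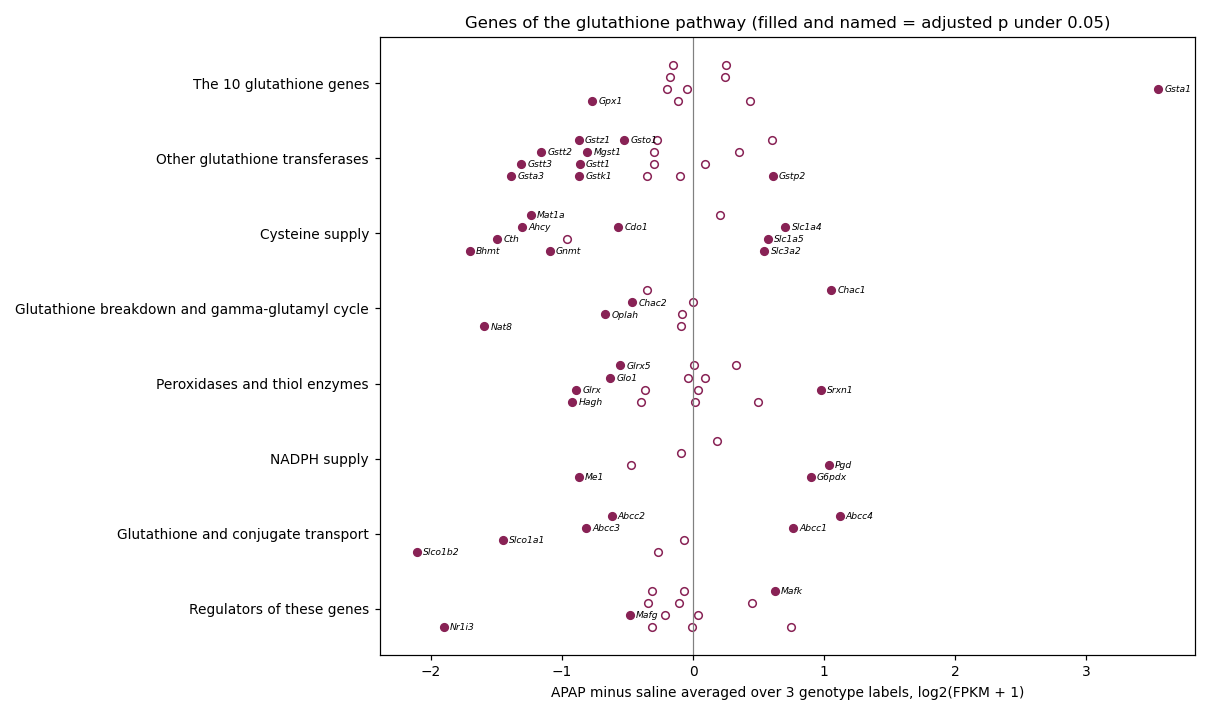
Averaged APAP response, log2(FPKM + 1), of the 10 genes and of 7 lists of other genes of the pathway (1 point per tested gene; filled and named where the adjusted p was under 0.05). Gsta1 at 3.55 is the highest point, and more genes fell than rose among the other transferases (8 against 1) and in the list titled cysteine supply, which also holds Cdo1 and Csad (6 against 3).

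Between OE and Het livers given APAP the same lists held 6 higher and 0 lower of 17 other transferases (median 0.82, against 0.05 over all genes, of which 8.72% were higher and 4.9% lower) and 6 higher and 1 lower of 11 genes of the cysteine list (median 0.88). Of the NADPH genes 0 were higher and 2 lower of 6 (median -0.55). The remaining lists held calls too, their genes named here only because they passed. Higher in OE were the regulators Mafg, Bach1 and Hnf4a and the transporters Abcc2, Slc25a39 and Slco1b2. So were Oplah and Lap3 of the breakdown list and the thiol enzyme Hagh, while Srxn1 was lower. Hepatocyte and monocyte markers differed between these groups too. In OE 5 of 9 periportal, 3 of 9 pericentral and 3 of 9 general hepatocyte markers passed as higher. As lower in OE passed 6 of 8 monocyte markers, and 1 of 4 neutrophil markers. Periportal sums were 4399.1 and 5147.7 FPKM in OE, and 1684.3 to 2222.6 FPKM in Het. Pericentral sums were 950 and 1535 FPKM in OE, and 238 to 781 FPKM in Het. Monocyte sums were 65.3 and 167 FPKM in OE, and 288 to 472 FPKM in Het. The part of these markers in the list counts was not tested.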

How the data were processed

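The authors' deposited table lists FPKM for each gene in each library. No header names the unit, which was inferred from the tools and the range of values. Per the submitters' processing notes, the authors used Cuffdiff and Cufflinks 2.2.1 after TopHat2 2.0.9 and bcl2fastq 2.17.1.14, with the build GRCm38.p5. Per the labels' protocols, the kit was a stranded total RNA kit and reads were paired. The gene annotation and use of strand are not given in the sources used here. Gene positions and overlaps are from GENCODE vM21 on GRCm38, and symbols came with a table of gene IDs (45139 of 46073 matched).

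Left out as failed estimates were 96 genes listed at 0 throughout a genotype and drug block while at a mean of at least 10 FPKM elsewhere (89), or within 100 kb of such a gene with the same zeros (7). None of the 10 genes was among them. In R 4.3.3, limma 3.58.1 (statmod 1.5.0) fitted log2(FPKM + 1), a pseudocount of 1, for the 11101 genes whose mean reached 1 FPKM. The fit held 8 label group means and a perfusion term, 8 residual degrees of freedom, and a variance prior that was trended and robust; this scale understates the change of low genes. Calls are at a Benjamini-Hochberg false discovery rate of 0.05. Lone libraries (IG, 300 mg/kg) entered the fit as groups of their own and no comparison. APAP minus saline differences of the 3 labels were averaged with equal weight. Depth is unknown, so intervals for counting error are not given. The smallest median absolute log2 difference between any 2 libraries was 0.135, so none was a duplicate. The fitting script was tested on simulated data for the averaged comparison only, which says nothing of the power of the others.

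All 10 genes are described. In comparisons other than the averaged response, those that passed and Gsta1 are named. Of each pathway list up to 4 genes with the smallest averaged p are named, and for Gsta1 and Gstm3 the 3 genes nearest in centred log2 values. Other names are marked. The members and lists were chosen with earlier results of these data known. Alternatives covered the pseudocount, the low filter, perfusion or lane terms, scaling, library weights, the lone libraries, failed estimates and each library left out. Shared sequence was counted in windows of 101 bases of the GENCODE transcripts, and promoters are RefSeq, on GRCm38.p6. Figures were drawn with matplotlib 3.10.9.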

Additional observations from a re-analysis of the deposited data

Results flagged for a closer look

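The single library given APAP at 300 mg/kg, an OE liver, and the single WT library given saline labelled IG enter no comparison, and 4 of their values lay above every one of the 7 libraries given saline in the replicated groups. In the 300 mg/kg library Gclm was at 122.38 FPKM and Gsta1 at 71.894 FPKM. In the IG library Gstm3 was at 43.637 FPKM and Gstp1 at 1558.61 FPKM. The highest of those 7 libraries were at 115.396 FPKM for Gclm, 45.0779 for Gsta1, 31.086 for Gstm3 and 1552.55 for Gstp1. All 10 genes were looked at in both single libraries, and the share of all genes above the 7 is not given. The values of the single libraries were not tested.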

How the results depend on the processing

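Over 26 alternatives, 583 values of single genes were recomputed. Of these, 541 kept their direction and side of the threshold, 22 lost a call, 4 gained one and 16 changed sign. The counts of the 10 genes below stand without the share of all genes that passed in the same alternative. A higher or lower count is therefore not a result about these genes. The Gsta1 call held in every alternative that could be fitted, averaged (25), in WT (25) and in Het (26). The count of the 10 genes that passed the averaged response was 4 with quantile normalisation and 1 to 2 with a library left out (1 without OE APAP 2). In WT it was 3 without the perfusion term, 2 with quantile normalisation, 2 with array weights, 3 with the lone libraries pooled and 1 to 2 with a library left out. In Het it was 1 with lane in place of perfusion and 1 to 2 with a library left out. For Het minus WT after APAP it was 2 with lane, 3 with array weights and 0 to 2 with a library left out. For OE minus Het after APAP it was 0 with no filter, with lane, with a common median and without OE saline 2 and OE APAP 1, and 0 to 1 with a library left out. Array weights gave 3 for Het minus WT under saline and 1 for the Het minus WT difference of response, and lane gave 1 for the OE minus Het difference of response (Gsta1).

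Changes of sign were confined to differences that had not passed. The averaged Gclc value was 0.13 without the perfusion term, 0.23 with quantile normalisation, 0.024 with the lone libraries pooled and 0.17 without OE saline 2 and OE APAP 1, and -0.22 to 0.17 with a library left out. Gstm3 was -0.27 without the perfusion term. Quantile normalisation gave 0.10 for Gclm, 0.10 for Gsta4, 0.13 for Gstm1 and 0.020 for Gstp1. With a library left out Gsta4 was -0.37 to 0.0076 and Gstm1 -0.46 to 0.19. Gsta1 in OE minus WT after APAP was 0.29 without OE saline 2 and OE APAP 1, and in OE minus WT under saline -0.31 to 2.18 with a library left out, the lowest without OE saline 1. The cause was not tested. Over all genes, 2561 passed the averaged response, 870 without OE APAP 2 and 1291 without OE saline 2. Lane in place of perfusion cannot give the averaged or WT responses. Nor can it give the saline differences of Het or OE from WT, or the differences of their responses from the WT response. No paired analysis was possible because replicate numbers follow the order of deposit and the labels pair no animals across groups. Unknown depth limits what can be said of genes under a few FPKM.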

Other observations

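Slc7a11, the cystine carrier that feeds glutathione synthesis and a known Nrf2 target, was too low to be tested and was singled out after its values were seen. It was listed at 0 to 0.138 FPKM in the 7 saline libraries of the replicated groups. After APAP it was at 1.03, 0.524 and 1.84 FPKM in WT, at 1.53, 1.27 and 1.76 in Het and at 0.438 in OE APAP 2, all 7 above every saline library. OE APAP 1 was listed at 0, and the 300 mg/kg library was at 0.169. With no counts behind these values, no fold is given.

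Nfe2l2, the gene of Nrf2, and Keap1, its inhibitor, did not pass. Nfe2l2 stood at 18.6 to 30.0 FPKM in the 7 saline libraries and at 14.3 to 24.2 in the 8 APAP libraries, with a log2 difference of -0.32 ± 0.13 (limma, adjusted p = 0.103). Keap1 stood at 9.32 to 13.5 and 8.25 to 11.6 FPKM, with a difference of -0.22 ± 0.08 (adjusted p = 0.0803). Both were chosen after their values were seen.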
